A study of Mus musculus with 36 samples.

Results

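The 10 genes described here are the heat shock genes *Hspa1a*, *Hspa1b*, *Hspa8*, *Hsp90aa1*, *Hsp90ab1*, *Dnajb1*, *Hsph1* and *Hspb1* and the cold-inducible genes *Cirbp* and *Rbm3*. They were chosen by symbol, and each symbol was matched to its Ensembl identifier, which gave 10 of the 78239 genes listed in every count file. Poly(A) RNA was sequenced from heart, kidney and liver of male wild-type (WT) C57BL/6NCrl mice that were 8, 10 or 12 weeks old, with 4 libraries in each of the 9 groups and 36 in all. No group received a treatment that another lacked, and in all of them, according to the study's methods, the mice were anesthetized with ketamine/xylazine, bled from the retro-orbital sinus and killed before the organs were frozen. The 4 libraries of a group were described as biological replicates, and animals shared cages. Levels are given as CPM, the reads of a gene per 1000000 reads assigned to genes, scaled by the trimmed mean of M-values (TMM) over the 36 libraries, and replicates are named by the numbers of their labels.

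Heat shock proteins are chaperones that bind unfolded or partly folded proteins and help them to fold, to be transported or to be degraded. Most of the inducible genes are switched on by heat shock factor 1, which binds arrays of inverted GAA units (heat shock elements) when unfolded protein accumulates, while *Hspa8* and *Hsp90ab1* are made in quantity in unstressed cells. *Cirbp* and *Rbm3* encode RNA-binding proteins whose messages increase when a cell is cooled mildly, and the level of *Cirbp* follows the daily rhythm of body temperature.

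Promoter sequences from RefSeq (GRCm38.p6, 250 bases before to 50 bases after each annotated start) were matched for 6 of the 10 genes. *Hspa8*, *Hsp90aa1*, *Hsp90ab1* and *Rbm3* had no entry. The stretches shown are those that place *Hspa1a*, *Hspa1b* and *Hspb1* side by side, which varied widely between libraries of kidney and liver, and the *Cirbp* promoter as the cold-inducible counterpart. Capitals mark matches, on either strand, to GAANNTTC (a pair of inverted heat shock units, a motif equal to its own reverse complement) or to TCCCCGCC (an element described for mild cold). The 150 bases before the start are given for the heat shock genes, on the minus strand at chr17:34972157-34972306 for *Hspa1a* and chr17:34959239-34959388 for *Hspa1b*, and on the plus strand at chr5:135887769-135887918 for *Hspb1*. For *Cirbp* all 250 bases before its first start are given, on the plus strand at chr10:80167589-80167838.
Hspa1a: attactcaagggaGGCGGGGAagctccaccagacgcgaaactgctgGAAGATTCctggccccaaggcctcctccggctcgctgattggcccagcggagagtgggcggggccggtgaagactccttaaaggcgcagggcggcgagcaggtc
Hspa1b: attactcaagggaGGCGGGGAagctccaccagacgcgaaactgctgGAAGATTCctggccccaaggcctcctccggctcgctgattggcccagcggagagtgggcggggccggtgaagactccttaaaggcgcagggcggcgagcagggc
Hspb1: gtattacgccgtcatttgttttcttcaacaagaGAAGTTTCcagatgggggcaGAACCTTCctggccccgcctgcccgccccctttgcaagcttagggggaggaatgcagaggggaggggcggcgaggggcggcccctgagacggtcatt
Cirbp: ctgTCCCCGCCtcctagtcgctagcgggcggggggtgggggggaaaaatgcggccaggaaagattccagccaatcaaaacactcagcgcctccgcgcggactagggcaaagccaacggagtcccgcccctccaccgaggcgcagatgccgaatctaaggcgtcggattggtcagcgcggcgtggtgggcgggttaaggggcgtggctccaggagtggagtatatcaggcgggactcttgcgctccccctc

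*Hspa1a* and *Hspa1b* differed at 1 of these 150 bases and at 3 of the 250 before the start. Both carried GAANNTTC at positions -104 to -97, counted back from the start, and the reverse complement of TCCCCGCC at positions -137 to -130. *Hspb1* held GAANNTTC at positions -117 to -110 and again at -97 to -90. In *Cirbp* the sense strand read TCCCCGCC at positions -247 to -240. Of the 32851 promoter windows of the same 300 bases, 7.86% held GAANNTTC and 5.38% held TCCCCGCC on either strand. A run of 3 units, GAANNTTC followed after NN by a further GAA, was present in 0.603% of the windows and, among these genes, in *Hsph1*. There it lay at positions 16 to 28 after the second annotated start, on the minus strand, within chr5:149636280-149636308, and it overlapped both the GAANNTTC and the TTCNNGAA match found there (TTCNNGAA was in 8.52% of windows).
Hsph1: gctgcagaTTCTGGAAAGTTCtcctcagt
No GAANNTTC or TTCNNGAA was found in the windows of *Dnajb1*. These matches describe the letters and do not show that a factor was bound.

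The libraries held between 21031599 and 33637390 reads assigned to genes, so even the scarcest of the 10 genes was counted. The defining markers went with the labels. The summed CPM of *Myh6*, *Tnnt2*, *Actc1*, *Ryr2* and *Myl2* was 43704 to 58681 in heart and at most 3.52 elsewhere. The kidney list (*Slc34a1*, *Lrp2*, *Umod*, *Nphs1*, *Aqp2*) summed to between 6868 and 7986 in kidney and at most 2.26 elsewhere, and the liver list (*Alb*, *Ttr*, *Apoa1*, *Cps1*, *Serpina1c*) to between 88349 and 154165 in liver and at most 150.2 elsewhere. One library, replicate 1 of the 12-week-old liver, stood apart from the other 11 livers in *Hspa1a*, *Hspa1b*, *Dnajb1* and *Hspb1*, and the tests of tissue and age that use livers are given with and without it.

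**Figure D1:**
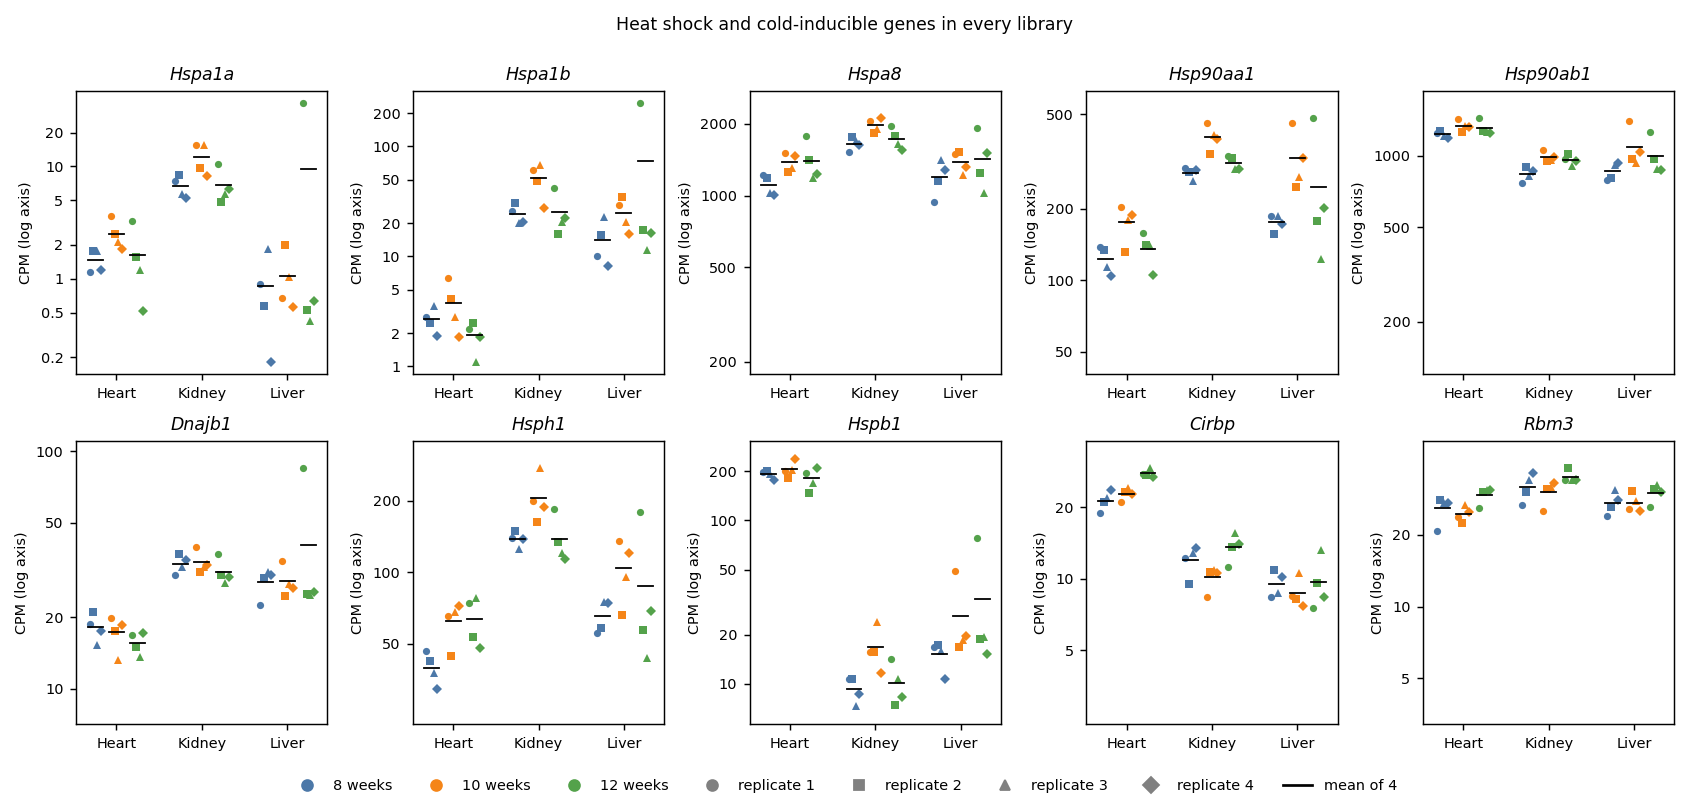
CPM of each of the 10 genes in each of the 36 libraries on a log axis, by tissue, with colour for age, marker shape for replicate number and a black bar for the mean of the 4 libraries of a group. *Hspb1* was highest in heart and *Hspa1b* was lowest in heart, and replicate 1 of the 12-week-old liver lay above the other livers in *Hspa1a*, *Hspa1b*, *Dnajb1* and *Hspb1*.

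Each tissue had its own balance of these genes. Per kilobase of the canonical transcript, the constitutive chaperones were the most abundant in every tissue. *Hspa8*, the HSP70 that serves folding and clathrin uncoating in unstressed cells, stood at 542 ± 89.9 CPM per kilobase in heart, 748 ± 79.6 in kidney and 559 ± 111 in liver (mean ± SD, n = 12 libraries each). *Hsp90ab1*, the constitutive cytosolic HSP90, reached 477 ± 29.5 CPM per kilobase in heart, 343 ± 30.0 in kidney and 363 ± 66.5 in liver. The order of these 2 genes was the same in every tissue, although their ranges overlapped in heart and in liver.

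The inducible partner of *Hsp90ab1* was the lower of the pair throughout. *Hsp90aa1* was at 41.0 ± 9.10 CPM per kilobase in heart, 93.8 ± 16.8 in kidney and 70.6 ± 33.2 in liver. *Hsph1*, an HSP110 that exchanges nucleotide on HSP70, measured 8.93 ± 2.53 CPM per kilobase in heart, 26.0 ± 7.33 in kidney and 13.9 ± 6.47 in liver. *Dnajb1*, the HSP40 that delivers substrates to HSP70, was at 4.83 ± 0.686, 9.33 ± 0.994 and 9.13 ± 4.80 CPM per kilobase in the same order. All 3 genes were lowest in heart.

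The stress-inducible HSP70 pair was scarce. *Hspa1a* had 0.634 ± 0.305 CPM per kilobase in heart, 2.89 ± 1.23 in kidney and 1.28 ± 3.46 in liver, where the SD exceeded the mean and 1 library held most of the reads. For *Hspa1b* the levels were 0.998 ± 0.49 in heart, 11.9 ± 6.13 in kidney and 13.3 ± 23.7 in liver. In kidney and liver *Hspa1b* was the more abundant of the pair in every library.

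The small heat shock gene and the cold-inducible genes showed another order. *Hspb1*, whose product holds unfolded proteins and binds actin filaments, was at 211 ± 24.3 CPM per kilobase in heart against 13.2 ± 5.15 in kidney and 27.0 ± 21.2 in liver. *Cirbp* was at 18.1 ± 2.39 CPM per kilobase in heart, 9.0 ± 1.56 in kidney and 7.05 ± 1.26 in liver. *Rbm3* was nearly even, at 5.32 ± 0.647, 6.48 ± 0.742 and 5.64 ± 0.553 CPM per kilobase in heart, kidney and liver.

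**Figure D2:**
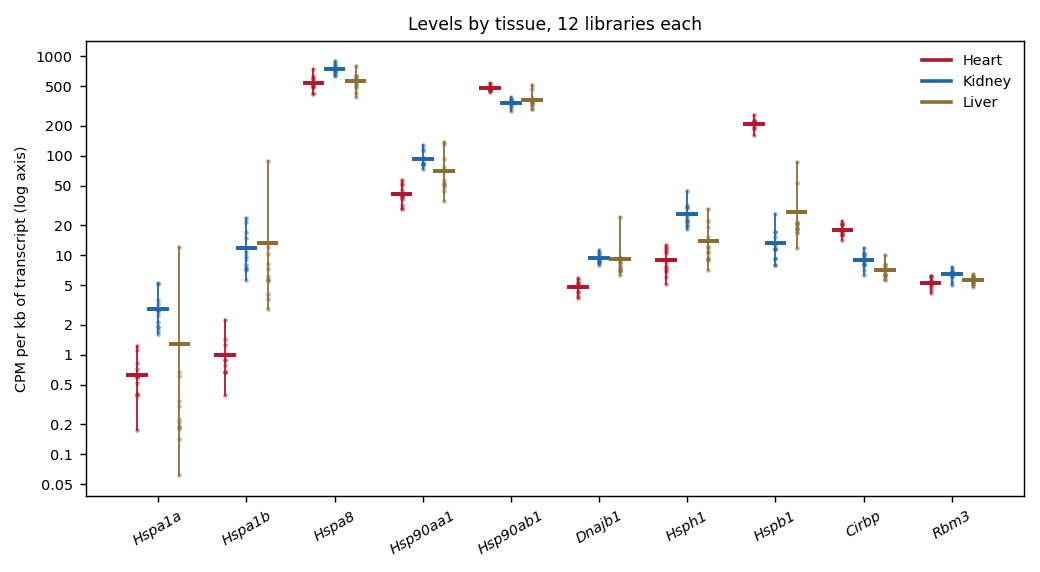
CPM per kilobase of the canonical transcript on a log axis for the 10 genes in heart, kidney and liver, with a point for each of 12 libraries, a thick bar for their mean and a line for their range. *Hspa8* and *Hsp90ab1* were highest everywhere, and *Hspb1* stood at 211 CPM per kilobase in heart against 13.2 in kidney.

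In the model of all 36 libraries, all 10 genes differed between heart and kidney by edgeR's quasi-likelihood test with Benjamini-Hochberg adjustment over all genes, where 86.1% of all genes tested did. *Hspb1* was the most displaced toward heart, with a log2 difference of 4.05 ± 0.219 (SE, adjusted p = 2.57e-18), and *Hspa1b* toward kidney, with -3.55 ± 0.392 (adjusted p = 3.96e-10). *Hsph1* was at -1.55 (adjusted p = 9.64e-11), *Hsp90aa1* at -1.2 (adjusted p = 8.91e-10) and *Cirbp* at 1.01 (adjusted p = 2.86e-14) for heart less kidney. *Rbm3* differed least, by -0.29 (adjusted p = 5.08e-05). *Hspa1a* stood at -2.18 (adjusted p = 4.21e-05), *Dnajb1* at -0.95 (adjusted p = 1.4e-07) and *Hspa8* at -0.47 (adjusted p = 4.32e-06), and *Hsp90ab1* was the other chaperone on the heart side, at 0.48 (adjusted p = 1.15e-08).

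Between heart and liver 7 of the 10 genes differed, against 84.2% of all genes. *Hspb1* was higher in heart by 3.03 on the log2 scale (adjusted p = 2.4e-15) and *Cirbp* by 1.35 (adjusted p = 1.96e-17). *Hspa1b* was lower in heart, with a log2 difference of -3.46 (adjusted p = 8.2e-10). *Hsp90aa1* (-0.75, adjusted p = 5.7e-06), *Dnajb1* (-0.90, adjusted p = 4.6e-07) and *Hsph1* (-0.64, adjusted p = 0.000416) were also lower in heart, and *Hsp90ab1* was higher there by 0.40 (adjusted p = 3.87e-07). *Hspa8* (-0.05, adjusted p = 0.615), *Rbm3* (-0.09, adjusted p = 0.185) and *Hspa1a* did not pass, and for *Hspa1a* the log2 difference of -0.19 had a 95% interval from -1.23 to 0.84. Without replicate 1 of the 12-week-old liver the *Hspa1a* difference turned to 1.2, higher in heart (adjusted p = 0.000312), and 8 genes differed. The other differences without it were -2.7 for *Hspa1b* (adjusted p = 2.28e-13), 3.33 for *Hspb1*, 1.32 for *Cirbp*, -0.57 for *Hsp90aa1*, 0.45 for *Hsp90ab1*, -0.68 for *Dnajb1* and -0.43 for *Hsph1*, all past the threshold, and 0.01 for *Hspa8* and -0.11 for *Rbm3*, which were not.

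Between kidney and liver 7 genes differed, against 83.1% of all genes. *Hspa1a* was 1.99 higher in kidney on the log2 scale (adjusted p = 0.000243), and 3.38 higher (adjusted p = 9.37e-14) without the liver that stood apart. Among the others, *Hsp90aa1* was 0.44 higher (adjusted p = 0.00341), *Hspa8* 0.42 (adjusted p = 2.33e-05), *Cirbp* 0.35 (adjusted p = 0.00016), *Rbm3* 0.20 (adjusted p = 0.00288) and *Hsph1* 0.90 (adjusted p = 3.73e-06), while *Hspb1* was lower there, at -1.02 (adjusted p = 3.21e-05). *Hspa1b* differed by 0.09, with a 95% interval from -0.55 to 0.73 (adjusted p = 0.819), and *Dnajb1* by 0.05 (adjusted p = 0.745), when all livers were used. Leaving out the same liver library moved *Hspa1b* to 0.85 (adjusted p = 0.000108) and *Dnajb1* to 0.28 (adjusted p = 0.000754) and brought the number of genes to 9. It moved *Hspb1* to -0.72, *Hsph1* to 1.11, *Hsp90aa1* to 0.63, *Hspa8* to 0.48, *Cirbp* to 0.31 and *Rbm3* to 0.18, all still past the threshold. *Hsp90ab1*, with log2 differences of -0.08 with that library and -0.03 without it, was the gene of the 10 that passed in neither. Since these are whole organs, a lower level can mean fewer cells that carry a transcript or less of it in each cell, and the counts cannot tell these apart.

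In kidney all 8 heat shock genes had a higher mean at 10 weeks than at 8, *Dnajb1* by a log2 fold change of 0.05. The median log2 fold change of all genes was 0.00226. Some of the 8 varied together, so they are not 8 separate results, and 1 of them passed the test. *Hsp90aa1* rose 1.43-fold (log2 fold change 0.52 ± 0.0833 SE, adjusted p = 0.0135) where 0.929% of the 17649 genes tested passed. Its 4 libraries read 296, 285, 261 and 290.0 CPM at 8 weeks, 457, 339, 409 and 393 at 10 weeks and 333, 326, 292 and 293 at 12 weeks. All 10-week-old kidneys were above all others, at both ages. The call was lost without replicate 3 of the 8-week-old kidneys (adjusted p = 0.0518) or without replicate 3 of the 10-week-old ones (adjusted p = 0.0562).

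*Hspa1a*, *Hspa1b*, *Hspa8*, *Hsp90ab1*, *Hsph1* and *Hspb1* had unadjusted p-values under 0.05 but adjusted p-values above it in this comparison. *Hspa1b* was at 25.7, 30.5, 20.1 and 20.7 CPM in 8-week-old kidneys and at 61.2, 48.5, 67.1 and 27.5 in 10-week-old kidneys, and at 12 weeks it was at 41.7, 15.8, 20.5 and 22.3. Only replicate 4 of the 10-week-old kidneys lay within the range of the 8-week-old ones. The fold was 2.14 (log2 fold change 1.10 ± 0.293 SE, adjusted p = 0.0835).

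*Hspa1a* read 7.40, 8.36, 5.71 and 5.19 CPM at 8 weeks, 15.5, 9.63, 15.3 and 8.25 at 10 weeks and 10.6, 4.82, 5.71 and 6.35 at 12 weeks. Replicates 1 and 3 were the highest at 10 weeks in both HSP70 genes. The 10-week to 8-week fold of *Hspa1a* was 1.87 (log2 fold change 0.90 ± 0.257 SE, adjusted p = 0.103).

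*Hspb1*, scarce in kidney, read 10.7, 10.7, 7.32 and 8.6 CPM at 8 weeks and 15.6, 15.7, 23.8 and 11.6 at 10 weeks, without overlap (fold 1.83, adjusted p = 0.0754). At 12 weeks its libraries were at 14.2, 7.39, 10.6 and 8.33 CPM. *Hsph1* was at 139, 148, 126 and 138 CPM in 8-week-old and at 199, 162, 275 and 187 in 10-week-old kidneys, again without overlap (fold 1.52, adjusted p = 0.0787). For both genes replicate 3 was the highest of the 10-week-old kidneys.

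The constitutive genes differed by less. *Hspa8* was at 1532 to 1756 CPM in 8-week-old and 1836 to 2124 in 10-week-old kidneys (log2 fold change 0.28 ± 0.0770 SE, adjusted p = 0.0904). *Hsp90ab1* was at 764 to 895 and 946 to 1051 CPM (log2 fold change 0.26 ± 0.0619 SE, adjusted p = 0.0600). Neither pair of groups overlapped. In all, 5 of the 10 genes (*Hspa8*, *Hsp90aa1*, *Hsp90ab1*, *Hsph1* and *Hspb1*) had 10-week-old kidneys that lay wholly above the 8-week-old ones, against 5.02% of all genes tested. The median log2 fold change of the 10 genes was 0.40 and that of all genes 0.00226, and 7 of them had an unadjusted p under 0.05, against 16.5% of all genes. *Dnajb1* was at 30.0 to 36.9 CPM at 8 weeks and 31.2 to 39.6 at 10 weeks (log2 fold change 0.05, adjusted p = 0.852). *Cirbp* had a log2 fold change of -0.22 (adjusted p = 0.391) and *Rbm3* of -0.05 (adjusted p = 0.856).

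The immediate early genes, a list of 7 genes that respond to handling and injury within minutes, also had sums without overlap between these ages. *Fos*, *Fosb*, *Jun*, *Junb*, *Egr1*, *Atf3* and *Ier2* were all measured, and their sum was 34.1 to 46.1 CPM in 8-week-old, 49.9 to 119 in 10-week-old and 32.9 to 50.3 in 12-week-old kidneys. Replicate 1 of the 10-week-old kidneys held the highest sum. The 4 adipocyte markers (*Adipoq*, *Plin1*, *Cidea*, *Ucp1*) summed to a median of 0.289 CPM in 8-week-old (0.142 to 32.1), 5.33 in 10-week-old (1.10 to 10.5) and 0.332 in 12-week-old kidneys (0.151 to 13.8). The highest sums were in 8-week replicate 2 and 12-week replicate 1, and 1 or 2 of the markers were at 0 in replicates 1 and 3 at 8 weeks and 2 and 3 at 12 weeks. Within the kidney marker list, *Aqp2* ran from 34.6 to 112 CPM over all kidneys, and its values by age are not given. The part of either list, or of *Aqp2*, in the kidney result was not tested.

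Among 49 further chaperone and co-chaperone genes, 4 rose and none fell from 8 to 10 weeks in kidney, where 0.929% of all genes passed. At an unadjusted p under 0.05, 15 were higher and 1 lower, against 16.5% of all genes in either direction. *Hspe1*, the lid of the mitochondrial chaperonin, rose from 94.3 to 97.4 CPM at 8 weeks to between 114 and 129.7 at 10 weeks (log2 fold change 0.36, adjusted p = 0.00507). The HSP40 gene *Dnaja1* rose by 0.46 on the log2 scale (adjusted p = 0.0146), from 191 to 215 CPM up to 245 to 305. *Stip1*, which joins HSP70 to HSP90, rose by 0.39 (adjusted p = 0.0253) and *Cacybp* by 0.35 (adjusted p = 0.0321). The call of *Dnaja1* was lost without 8-week replicate 4 or 10-week replicate 3, that of *Stip1* without 8-week replicate 1, 3 or 4 or 10-week replicate 1 or 3, and that of *Cacybp* without any of the 8-week replicates or 10-week replicate 1 or 3. The list's median log2 fold change was 0.05, against 0.00226 for all genes.

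Between 10 and 12 weeks none of the 10 genes passed in kidney, where 0.482% of all genes did. This comparison shares the 10-week-old kidneys with the one above, so its values are set beside the earlier ones and are not a second test of them. *Hsp90aa1* had a log2 fold change of -0.38 ± 0.0831 SE (adjusted p = 0.0595) and its 12-week-old kidneys lay wholly below the 10-week-old ones, as in 4.39% of all genes. *Hspa1b* was at -1.04 (adjusted p = 0.106), *Hspa1a* at -0.84 (adjusted p = 0.123), *Hspb1* at -0.74 (adjusted p = 0.120) and *Hsph1* at -0.59 (adjusted p = 0.0944). *Hspa8* was at -0.21 (adjusted p = 0.196), *Dnajb1* at -0.15 (adjusted p = 0.475) and *Hsp90ab1* at -0.06 (adjusted p = 0.664). In all, 7 of the 10 genes had an unadjusted p under 0.05, 6 lower and 1 higher, where 16.4% of all genes did. The one that was higher was *Cirbp*.

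*Cirbp* read 8.38, 10.6, 10.9 and 10.5 CPM in 10-week-old kidneys and 11.2, 13.5, 15.5 and 14.0 in 12-week-old ones. All 12-week-old kidneys were above all 10-week-old ones, and the 8-week-old ones, at 12.2, 9.46, 12.8 and 13.4 CPM, overlapped both. Its log2 fold change from 10 to 12 weeks was 0.40 ± 0.121 SE (adjusted p = 0.120). *Rbm3* was also without overlap, at 25.1 to 33.2 CPM at 10 weeks and 34.0 to 38.3 at 12 weeks (log2 fold change 0.19, adjusted p = 0.339), and 4.54% of all genes were higher in this way. Of the further chaperones, *Hspe1* fell by 0.30 on the log2 scale (adjusted p = 0.0189) and *Hspa4l*, an HSP110 relative, fell by 0.56 (adjusted p = 0.0217) from 10 to 12 weeks. The call of *Hspe1* was lost without replicate 3 of either age and that of *Hspa4l* without 10-week replicate 1 or 3 or 12-week replicate 2, 3 or 4.

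Between 8 and 12 weeks none of the 10 genes passed in kidney, where 0.0567% of all genes did. *Hsp90ab1* had the smallest p, with 764, 895, 823 and 862 CPM at 8 weeks and 964, 1011, 901 and 945 at 12 weeks, without overlap, as in 3.66% of all genes (log2 fold change 0.20 ± 0.0619 SE, adjusted p = 0.279). The log2 fold changes of the other 9 were 0.06 for *Hspa1a*, 0.06 for *Hspa1b*, 0.08 for *Hspa8*, 0.14 for *Hsp90aa1*, -0.10 for *Dnajb1*, 0.00958 for *Hsph1*, 0.13 for *Hspb1*, 0.18 for *Cirbp* and 0.14 for *Rbm3*, with adjusted p from 0.541 to 0.992.

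In heart *Hsph1* and *Cirbp* rose from 8 to 12 weeks, 2 of the 10 genes where 4.56% of the 15137 genes tested passed and 2.36% rose. *Hsph1* read 46.4, 42.4, 37.6 and 32.2 CPM at 8 weeks, 65.1, 44.2, 67.8 and 72.2 at 10 weeks and 74.5, 53.6, 77.8 and 48.1 at 12 weeks. The 12-week-old hearts lay wholly above the 8-week-old ones, as in 6.92% of all genes, replicates 1 and 3 furthest. The fold was 1.60 (log2 fold change 0.67 ± 0.163 SE, adjusted p = 0.0312), and leaving out 1 heart at a time gave log2 fold changes from 0.55 to 0.79, with the call lost for 5 of the 12 hearts. These were replicates 2, 3 and 4 at 8 weeks and 1 and 3 at 12 weeks, and the highest adjusted p was 0.101.

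*Cirbp* changed by less and with a narrower spread. Its libraries read 18.9, 20.9, 21.8 and 23.6 CPM at 8 weeks, 21, 23.1, 24.1 and 22.8 at 10 weeks and 27.5, 27.2, 29.2 and 26.8 at 12 weeks. Every 12-week-old heart was above every younger heart, and 3.26% of all genes were higher without overlap at 12 than at 10 weeks. From 8 to 12 weeks the fold was 1.3 (log2 fold change 0.37 ± 0.0823 SE, adjusted p = 0.0218). Without replicate 2 of the 8-week-old hearts, or replicate 1 or 3 of the 12-week-old ones, the adjusted p rose above 0.05, to at most 0.0729, with log2 fold changes of 0.32 to 0.43 over the 12 hearts left out in turn.

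*Rbm3* read 20.8, 28.0, 27.3 and 27.4 CPM in 8-week-old, 23.9, 22.5, 26.7 and 25.0 in 10-week-old and 25.9, 30.2, 31 and 31 in 12-week-old hearts. Replicate 1 was the lowest at 8 and at 12 weeks. From 10 to 12 weeks its log2 fold change was 0.26 (adjusted p = 0.311). Of the 6 other genes with temperature-sensitive expression or splicing (*Rbmx*, *Srsf5*, *Clk1*, *Clk2*, *Clk3* and *Clk4*), none passed in any of the 9 comparisons. All 6 had log2 fold changes below 0 in heart from 8 to 12 weeks, with a median of -0.21 against 0.000896 for all genes, and 2 of them had an unadjusted p under 0.05, against 23.4% of all genes. From 8 to 10 weeks all 6 were below 0 as well, with a median of -0.22 against -0.00448 for all genes, and 3 of them had an unadjusted p under 0.05, against 15.8% of all genes. These comparisons share the 8-week-old hearts.

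The remaining chaperones of the heart did not pass from 8 to 12 weeks. *Hspa8* was at 1217, 1187, 1027 and 1009 CPM at 8 weeks and 1781, 1404, 1184 and 1234 at 12 weeks (log2 fold change 0.33 ± 0.117 SE, adjusted p = 0.102). *Hspb1*, at 176 to 200.4 CPM at 8 weeks and 148 to 210.5 at 12 weeks, overlapped at all ages. *Hspa1b* stood at 2.82, 2.5, 3.56 and 1.90 CPM at 8 weeks, 6.35, 4.08, 2.84 and 1.87 at 10 weeks and 2.21, 2.49, 1.10 and 1.87 at 12 weeks. Replicate 1 of the 10-week-old hearts was the highest. From 8 to 12 weeks the log2 fold changes were -0.50 for *Hspa1b*, 0.12 for *Hspa1a*, 0.15 for *Hsp90aa1*, 0.08 for *Hsp90ab1*, -0.22 for *Dnajb1*, -0.09 for *Hspb1* and 0.19 for *Rbm3*, with adjusted p from 0.264 to 0.888. Of the 49 further chaperones, *Dnaja4* rose by 0.38 on the log2 scale (adjusted p = 0.0368) and the mitochondrial HSP70 gene *Hspa9* by 0.29 (adjusted p = 0.0449), while *Unc45a*, a myosin chaperone, fell by 0.43 (adjusted p = 0.00987). Leaving out 1 heart at a time, *Unc45a* passed in all 12 fits, *Dnaja4* was lost in 6 (8-week replicates 1, 3 and 4, 12-week replicates 1, 2 and 3) and *Hspa9* in 8 (8-week replicates 2, 3 and 4, 10-week replicates 2 and 4, 12-week replicates 1, 2 and 3). In all, 3 of the 49 passed, where 4.56% of all genes did. The list held 10 genes higher and 10 lower at an unadjusted p under 0.05, against 23.4% of all genes in either direction.

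From 8 to 10 weeks none of the 10 genes passed in heart, where 1.06% of all genes did. *Hsp90aa1* read 138, 134, 113.4 and 104 CPM at 8 weeks and 204, 131, 179.7 and 188 at 10 weeks, and replicate 2 alone overlapped (log2 fold change 0.52 ± 0.136 SE, adjusted p = 0.0783). *Hsph1* had a log2 fold change of 0.66 ± 0.164 SE (adjusted p = 0.0663). *Hspa8* and *Hspa1a* were without overlap between these ages, against 5.05% of genes higher in this way, with log2 fold changes of 0.32 and 0.78 and adjusted p-values of 0.200 and 0.326. *Hspa1b* had a log2 fold change of 0.50, *Hsp90ab1* of 0.12, *Hspb1* of 0.10, *Cirbp* of 0.09, *Dnajb1* of -0.07 and *Rbm3* of -0.07, with adjusted p from 0.464 to 0.831. From 10 to 12 weeks none passed, where 0.0396% of all genes did, and *Hspa1b* had a log2 fold change of -1.0 ± 0.32 SE (adjusted p = 0.264). *Hsp90aa1* was at -0.37 (adjusted p = 0.293) and *Cirbp* at 0.28 (adjusted p = 0.243), with *Rbm3* given above. The remaining 6 were *Hspa1a* at -0.66, *Hspb1* at -0.19, *Dnajb1* at -0.15, *Hsp90ab1* at -0.04, *Hspa8* at 0.02 and *Hsph1* at 0.02, with adjusted p from 0.484 to 0.972.

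**Figure D3:**
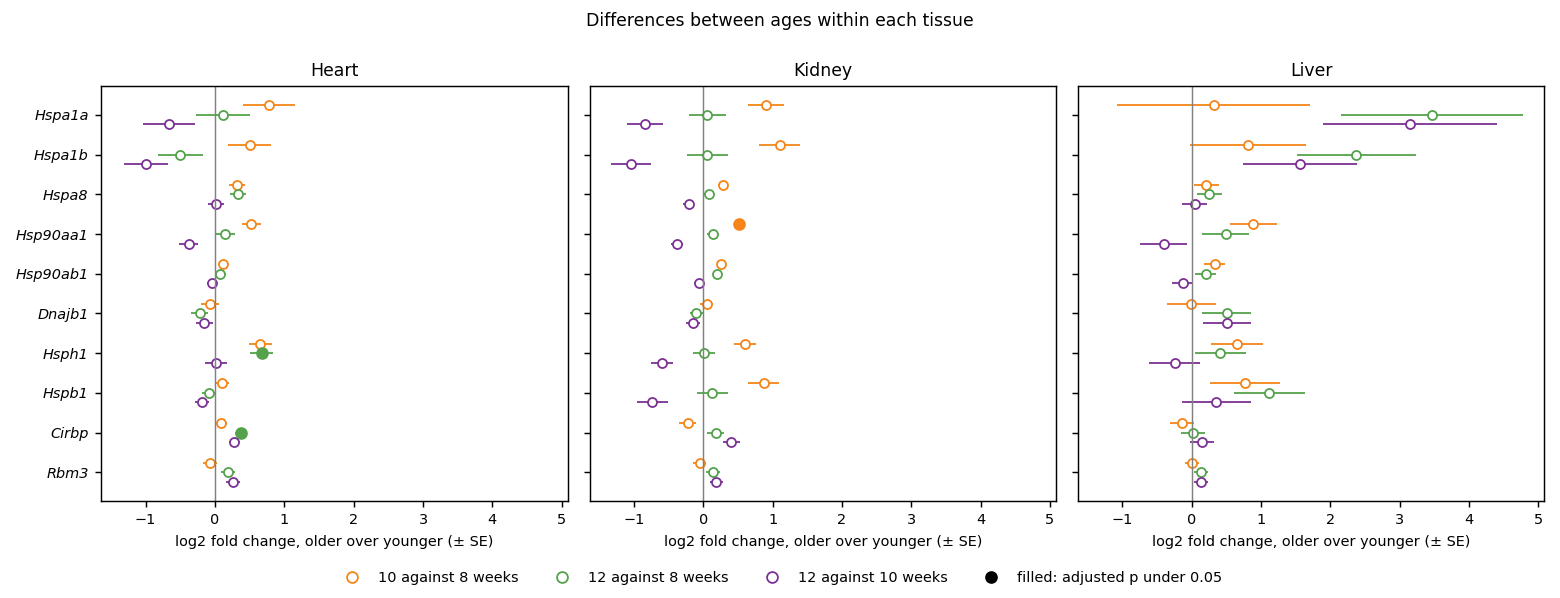
Log2 fold change (older less younger) with its standard error for each of the 10 genes in the 3 age comparisons of heart, kidney and liver, filled where the adjusted p was under 0.05. The filled points are *Hsph1* and *Cirbp* in heart from 8 to 12 weeks and *Hsp90aa1* in kidney from 8 to 10 weeks, and the widest error bars are those of *Hspa1a* and *Hspa1b* in liver.

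In liver none of the 10 genes passed in any age comparison, where 0.239% of all genes did from 8 to 12 weeks, 0.0204% from 8 to 10 and 0.0545% from 10 to 12. In the comparisons with 12 weeks the values of several genes moved with replicate 1 of the 12-week-old livers. *Hspa1b* read 10.2, 15.7, 22.8 and 8.19 CPM at 8 weeks, 29.1, 34.3, 20.4 and 15.8 at 10 weeks and 247, 17.2, 11.4 and 16.3 at 12 weeks. The 3 other 12-week-old livers lay within the range of the 8-week-old ones. The 12-week to 8-week log2 fold change was 2.37 ± 0.86 SE (adjusted p = 0.232) with all libraries and 0.06 (adjusted p = 0.953) without that library. From 10 to 12 weeks it was 1.56 (adjusted p = 0.415) with and -0.75 (adjusted p = 0.275) without it.

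*Hspa1a* read 0.904, 0.568, 1.83 and 0.183 CPM at 8 weeks, 0.674, 1.99, 1.03 and 0.557 at 10 weeks and 36.3, 0.528, 0.424 and 0.63 at 12 weeks. The library with 36.3 CPM was the only liver above 1.99. The log2 fold change from 8 to 12 weeks was 3.47 ± 1.31 SE (adjusted p = 0.25), and without that library it was -0.72 (adjusted p = 0.651). From 10 to 12 weeks it went from 3.15 (adjusted p = 0.28) to -1.03 (adjusted p = 0.418).

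The same liver was highest in the other inducible chaperones too. *Hspb1* read 16.9, 17.2, 15.9 and 10.8 CPM at 8 weeks, 49.2, 16.8, 18.5 and 19.7 at 10 weeks and 78.5, 18.9, 19.4 and 15.3 at 12 weeks, so that replicate 1 stood out at both older ages. *Dnajb1* was at 85.1 CPM in that liver and at 22.6 to 34.4 CPM in the other 11. *Hsp90aa1* was at 482.5 CPM there and at 122.9 to 201 in the others at 12 weeks, and *Hsph1* at 179 CPM against 43.8 to 68.9, the highest of the 12 livers for both genes. The log2 fold change of *Hspb1* from 8 to 12 weeks was 1.12 ± 0.506 SE (adjusted p = 0.32), and 0.21 (adjusted p = 0.812) without it. From 10 to 12 weeks it was 0.36 (adjusted p = 0.788), and -0.55 (adjusted p = 0.408) without it.

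The constitutive genes were less displaced in that liver. *Hspa8* was at 1932 CPM there and at 1024 to 1517 in the other 12-week-old livers. *Hsp90ab1* was at 1256 CPM there, below the 1404 CPM of replicate 1 at 10 weeks. *Cirbp* was at its lowest liver level there, 7.55 CPM, against 9.61, 13.2 and 8.39 in the others of its age.

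For the other 7 genes the log2 fold changes from 8 to 12 weeks were 0.51 for *Dnajb1*, 0.49 for *Hsp90aa1*, 0.41 for *Hsph1*, 0.26 for *Hspa8*, 0.20 for *Hsp90ab1*, 0.13 for *Rbm3* and 0.02 for *Cirbp*, with adjusted p from 0.523 to 0.976. Without that library they were -0.19, -0.08, -0.23, 0.07, 0.06, 0.18 and 0.11 in the same order, with adjusted p from 0.464 to 0.891. From 10 to 12 weeks they were 0.51, -0.40, -0.24, 0.04, -0.13, 0.13 and 0.15, with adjusted p from 0.543 to 0.941. Without that library the last comparison gave -0.97 for *Hsp90aa1* (adjusted p = 0.0726) and -0.88 for *Hsph1* (adjusted p = 0.0891), and -0.18 for *Dnajb1*, -0.15 for *Hspa8*, -0.27 for *Hsp90ab1*, 0.18 for *Rbm3* and 0.25 for *Cirbp*, with adjusted p from 0.318 to 0.674.

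The 7 immediate early genes summed to 428.6 CPM in that liver, to 89.9, 149 and 196.8 in the others at 12 weeks, to 140.2 to 343 at 10 weeks and to 118 to 152 at 8 weeks. Neutrophil markers (*S100a8*, *S100a9*, *Retnlg*) summed to 11.1 CPM in that liver, to 0.242 to 1.49 in the others at 12 weeks and to 0.733 to 3.02 at 8 weeks, and the highest sum, 14.9, was in replicate 2 at 10 weeks. The part of these in the liver result was not tested.

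Between 8 and 10 weeks *Hsp90aa1* and *Hsp90ab1* had livers without overlap, against 4.54% of genes higher in this way. *Hsp90aa1* read 185, 157, 187 and 172 CPM at 8 weeks and 459.6, 246, 271 and 328 at 10 weeks (log2 fold change 0.89 ± 0.341 SE, adjusted p = 0.264). Replicate 1 was again the highest of its age. *Hsp90ab1* read 792, 805, 912 and 930.1 CPM at 8 weeks and 1404, 971, 933 and 1039.7 at 10 weeks (log2 fold change 0.33 ± 0.149 SE, adjusted p = 0.336). In this comparison *Hspa1b* was at 0.81, *Hspb1* at 0.77, *Hsph1* at 0.66, *Hspa1a* at 0.32, *Hspa8* at 0.22, *Rbm3* at 0.00112, *Dnajb1* at -0.00210 and *Cirbp* at -0.13, with adjusted p from 0.446 to 0.998. When the 12-week liver that stood apart was left out of the fit, the adjusted p of *Hsp90aa1* was 0.0748 (log2 fold change 0.89) and that of *Hsp90ab1* 0.218, and those of the other 8 genes ran from 0.151 to 0.997.

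Replicate 1 of the 10-week-old livers was the highest of its age in *Hsp90aa1*, *Hsp90ab1*, *Dnajb1*, *Hsph1* and *Hspb1*. It had 13% of its reads unmapped, and 68.6% of its reads were counted, the lowest share of the 12 livers. The unmapped share was 2.81% to 6.96% in the 8-week-old livers and 6.50% to 9.32% in the others at 10 weeks. At 12 weeks it was 6.46% to 9.51%, with 7.49% in the library that stood apart. The summed immune cell markers (*Ptprc*, *Cd74*, *C1qa*, *Adgre1*, *Cd3e*) were at 59.1 to 98.9 CPM in 8-week-old and 123 to 171.7 in 10-week-old livers, and the endothelial ones (*Pecam1*, *Cdh5*, *Kdr*) at 73.8 to 122.4 and 122.5 to 138. The part of the unmapped share or of either list in these values was not tested.

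Whether an age change differed between tissues was tested as an interaction. None of the 10 genes passed in the 9 such comparisons. Of all genes, 0.112%, 0.198% and 0.0152% passed between heart and kidney (8 to 12, 8 to 10 and 10 to 12 weeks), 4.16%, 1.09% and 0.771% between heart and liver and 0.304%, 0.0558% and 0.761% between kidney and liver. For *Hsp90aa1* from 8 to 10 weeks the log2 fold change in heart less that in kidney was 0.02, with a 95% interval from -0.62 to 0.67, and that in kidney less that in liver was -0.40, from -1.05 to 0.25. *Hsph1* from 8 to 12 weeks differed by 0.67 between heart and kidney, with an interval from -0.08 to 1.43 (adjusted p = 0.538). *Cirbp* differed by 0.20 between heart and kidney, from -0.16 to 0.56 (adjusted p = 0.749), and by 0.36 between heart and liver, from -0.02 to 0.73 (adjusted p = 0.326). The smallest adjusted p of the 10 genes was 0.0811, for *Hspa1a* between kidney and liver from 10 to 12 weeks. Leaving out replicate 2, 3 or 4 of the 12-week-old livers, which keeps the library that stands apart, gave 1 gene past the threshold there. Between heart and liver from 8 to 12 weeks, leaving out replicate 3 or 4 gave 1 and 2 genes. The share of all genes called in these smaller fits is not given, so these counts do not set the 10 genes apart. Without the library that stands apart the count was 0 in all 9. A change called in one tissue is therefore not shown to be particular to it.

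The genes also differed in how much libraries of the same age varied. The fitted coefficient of variation between libraries of *Hspa1b* was 0.294 in hearts, 0.283 in kidneys and 0.755 in livers, against 0.174, 0.0917 and 0.166 for genes of the same abundance. Ranked by that ratio among all genes tested, *Hspa1b* stood at percentiles 97.5, 99.4 and 99.9 for heart, kidney and liver, and *Hspa1a* at 98, 97.8 and 99.8. *Hsph1* was at 97.3, 96.2 and 98.2. *Hspb1* was at 75.8 in heart, where it is abundant, and at 97.5 in kidney and 99.1 in liver. The constitutive *Hsp90ab1* was at 18.1, 40.1 and 64.3, and *Cirbp* at 16.9, 80.2 and 57.3. *Hspa8*, also constitutive, was at 82.5, 60.4 and 77.6, and the inducible *Dnajb1* at 79.0, 79.6 and 97.5. *Hsp90aa1* was at 93.4, 72.2 and 97.2 and *Rbm3* at 58.5, 78.1 and 28.3. The ratio of the highest to the lowest library was 5.76 for *Hspa1b* in heart, 4.24 in kidney and 30.1 in liver. Without replicate 1 of the 12-week-old livers that ratio was 4.19, and the fitted coefficient of *Hspa1b* was 0.306. The liver percentiles were then 96.8 for *Hspa1b*, 94.6 for *Hspa1a*, 91.8 for *Hsph1*, 96.5 for *Hspb1*, 52.1 for *Hsp90ab1* and 55.8 for *Cirbp*. For *Hspa8* the percentile was 67.0, for *Dnajb1* 53.0, for *Hsp90aa1* 86.9 and for *Rbm3* 28.4.

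Some of the inducible genes varied together within an age. In 7 pairs, each in 3 tissues, the deviations of log2 CPM from the age means were correlated over 12 libraries, with permutation within ages (two-sided, 21 relations adjusted together). In kidney *Hspa1a* and *Hspa1b* had Pearson's r = 0.949 (permutation p = 0.00049, adjusted p = 0.0103) and Spearman's rho = 0.937 (permutation p = 0.00115, adjusted p = 0.00889). Without the 2 libraries farthest from the median r was 0.918, and here and below such values kept the age means of all 12 libraries. *Hspa1b* and *Hspb1*, which lie on different chromosomes, had r = 0.880 (permutation p = 0.00183, adjusted p = 0.0192) and rho = 0.895 (permutation p = 0.00127, adjusted p = 0.00889) in kidney, with r = 0.796 without the 2 farthest libraries. The adjusted p of this r rose to 0.0795 without replicate 1 of the 12-week-old kidneys and to 0.0612 without replicate 2.

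In liver *Hspa1a* and *Hspa1b* had r = 0.960 (permutation p = 0.0046, adjusted p = 0.0322) and rho = 0.902 (permutation p = 0.0041, adjusted p = 0.0215), with r = 0.825 without the 2 farthest libraries. Leaving out replicate 1 of the 12-week-old livers alone gave r = 0.766 (adjusted p = 0.202), and leaving out any of 6 others (8-week replicates 3 and 4, 10-week replicates 2 and 4, 12-week replicates 2 and 3) kept r between 0.956 and 0.962 with adjusted p from 0.0521 to 0.0945. The other liver relations of *Hspa1b* leaned on the 2 farthest libraries, that one among them. Without these 2, r went from 0.914 to 0.610 with *Dnajb1*, from 0.809 to 0.526 with *Hspb1* and from 0.756 to 0.0438 with *Hsph1*. Leaving out 1 library at a time, with age means taken anew, gave r as low as 0.310, 0.285 and -0.049 in that order. None of the 3 passed with all libraries (adjusted p of 0.191, 0.191 and 0.207).

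In heart *Hsp90aa1* and *Hsp90ab1* had rho = 0.902 (permutation p = 0.00091, adjusted p = 0.00889) and r = 0.781 (permutation p = 0.0232, adjusted p = 0.0976), and r was 0.734 without the 2 farthest libraries. *Hspa1b* and *Cirbp* had negative r in each tissue, at -0.51 in heart, at -0.58 in kidney and at -0.52 in liver, but none passed (adjusted p of 0.191, 0.191 and 0.336). Without the 2 farthest libraries r was -0.48 and -0.50 in heart and kidney, and it turned to 0.0845 in liver. Leaving out 1 liver at a time, with age means taken anew, gave r from -0.63 to -0.25. *Cirbp* and *Rbm3* had r of 0.619, 0.487 and 0.380 in heart, kidney and liver, and none passed either (adjusted p of 0.207, 0.207 and 0.289).

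**Figure D4:**
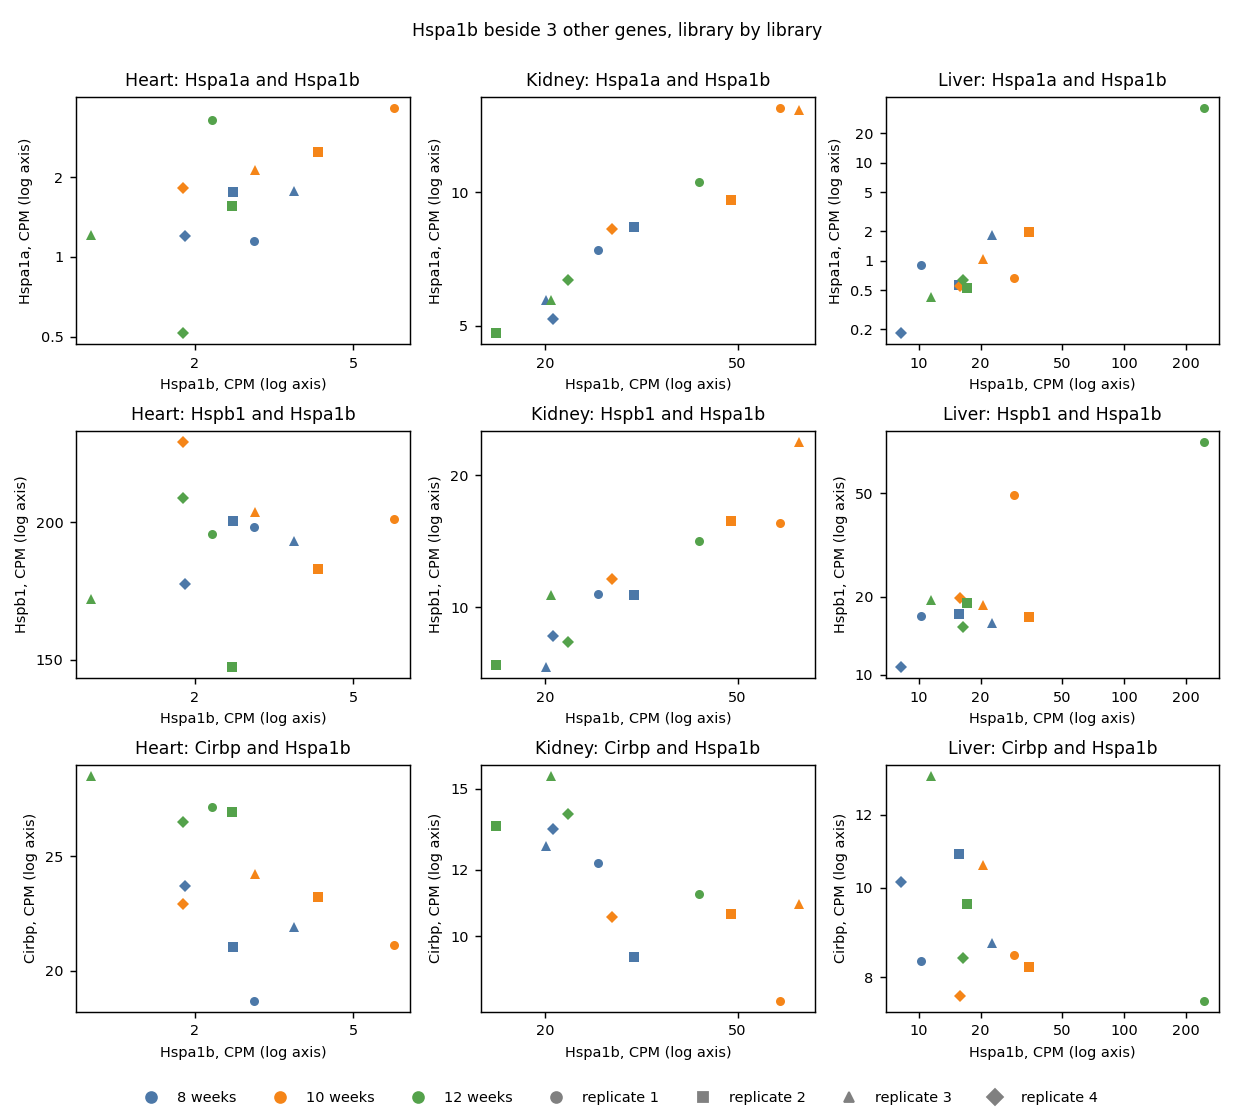
CPM of *Hspa1a*, *Hspb1* and *Cirbp* against *Hspa1b* in the 12 libraries of heart, kidney and liver, on log axes, with colour for age and marker shape for replicate number. In kidney *Hspa1a* and *Hspb1* climb with *Hspa1b* over all libraries (r = 0.949 and 0.880 within ages), and in liver 1 library at 247 CPM of *Hspa1b* lies far from the rest.

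Over the 12 libraries of a tissue with ages kept in, the genes whose log2 CPM followed *Hspa1b* most closely were listed for comparison, as a description. In kidney these were *Tbx3* (r = 0.978), *Hspa1a* (0.977), *Cck* (0.961), *Wfs1* (0.950) and *Muc1* (0.950) of 10873 genes, and *Hspb1* ranked 9 and *Hsph1* 92. In liver they were *Stk40* (0.966), *Ets2* (0.941) and the oxidative stress genes *Hmox1* (0.929), *Srxn1* (0.927) and *Sqstm1* (0.924) of 9068 genes, and these coefficients share the library that stands apart. In heart they were *Cacna1g* (0.918), *Syvn1* (0.838) and *Inpp5j* (0.823) of 9702 genes.

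*Cirbp* was followed most closely in heart by *Txnrd3* (r = 0.949), *Lgals8* (0.946), *Fam168a* (0.929), *Trim35* (0.929) and *Klhdc10* (0.926) of 9701 genes. *Rbm3* ranked 438 there (r = 0.720), 482 in kidney (0.644) and 1602 in liver. In kidney *Etnk2* (0.928), *Poc1b* (0.900) and *Acsm5* (0.897) led, and in liver *Irf3* (0.962), *Kptn* (0.902) and *Egln2* (0.887), the last a prolyl hydroxylase of the hypoxia response.

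The counting bears on some of these levels. *Hspa1a* (17:35188166-35191132 on GRCm39) and *Hspa1b* (17:35175412-35178214) are intronless neighbours on the minus strand, and 38.1% of the 150-base windows of the *Hspa1a* transcript occur unchanged in *Hspa1b*, with 40.5% the other way. Reads that fit both places were not counted, so both levels are understated and their split rests on the parts that differ. The ratio of the *Hspa1b* count to the *Hspa1a* count had a median of 1.59 in heart (0.672 to 3.62 over 12 libraries), 3.62 in kidney (3.29 to 5.04) and 26.4 in liver (6.80 to 44.7).

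Reads in regions shared with a gene on the opposite strand were also not counted. *Hspa1a* shares 19.0% of its exons with *Gm20481*, *Cirbp* 32.5% with *Gm67271* and *Gm67261*, and *Rbm3* 6.04% with *Rbm3os*. *Hsp90ab1* shares 34.9% with *Slc35b2* and *Gm56882*, *Hsph1* 11.2% with *Gm73411* and *Gm20005*, and *Hsp90aa1* 1.93% with *Gm53768*. When the strand-specific counts were summed, the totals of *Hspa1a* were 1.76, 1.71 and 1.71 times as large in heart, kidney and liver, those of *Cirbp* 1.65, 1.79 and 1.77 times, and those of *Rbm3* 1.28, 1.31 and 1.21 times. The totals of *Hsp90aa1* were 1.18, 1.17 and 1.18 times as large, those of *Hsp90ab1* 1.08, 1.09 and 1.08 times and those of *Hsph1* at most 1.01 times. The library kit is not stated to mark strand, and 49.8% to 50.2% of the reads counted by strand fell to the first strand in each library. Reads of a gene and of its antisense partner therefore cannot be told apart in these regions. With the strand sum the ratio of *Hspa1b* to *Hspa1a* had medians of 0.923, 2.10 and 11.2 in heart, kidney and liver, in the same order of tissues. No age call of *Hsph1*, *Cirbp* or *Hsp90aa1* was lost with the strand sum.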

How the data were processed

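RNA was measured in 36 libraries, 4 for each tissue and age, grouped by their labels. Per the study's methods and the submitters' notes, reads were trimmed with cutadapt 4.2, checked with FastQC 0.11.9, aligned to GRCm39 (Ensembl release 113) with STAR 2.7.11b, and the authors deposited its gene counts. These hold uniquely mapped reads, without regard to strand, in fragments that fit 1 gene. Rows for unmapped, multimapped, ambiguous and featureless reads were left out. Of 78239 identifiers, 99.9% were named by a later annotation of the same build.

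The 10 genes and all gene lists were chosen with earlier results of these data known. All 10 were named in every comparison of ages or of tissues. Of the longer lists, those past the threshold were named, and up to 5 genes nearest to *Hspa1b* and *Cirbp* by Pearson's r among genes with a mean of at least 5 CPM (1 item is not reported here). Genes with a mean count of at least 10 and at least 2 libraries above 0 in some age were kept. All 10 passed in every tissue. Ages were tested per tissue with edgeR 4.0.16 (quasi-likelihood test, TMM, Benjamini-Hochberg over all genes kept, adjusted p under 0.05), and tissues and interactions in 1 model of 36 libraries. Printed CPM were scaled over all 36 libraries, and lengths were those of canonical transcripts. Scripts were tested on simulated data. Correlations used 100000 permutations within ages. DESeq2 1.42.0, limma 3.58.1 (voom), RLE factors, no filter, the strand sum, a prior count of 0.5 in place of 2, a replicate block and leaving out each library were tried.

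The depth of 21031599 to 33637390 counted reads per library makes counting error small for all but *Hspa1a* and *Hspa1b* in heart and *Hspa1a* in liver.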

Additional observations from a re-analysis of the deposited data

Results flagged for a closer look

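In each of the 90 gene-by-group sets of 4 libraries, the highest or lowest library was compared with the others by the ratio of its gap to the whole range (Dixon's test). Chance alone flags about 5% of groups when the sets are independent and their values normally distributed, and 10 were found. The sets share libraries and CPM were used without logs, so an excess over that rate cannot be read from this count. In replicate 1 of the 12-week-old livers *Hspa1a* was at 36.3 CPM (others 0.424 to 0.63), *Hspa1b* at 247 CPM (others 11.4 to 17.2), *Dnajb1* at 85.1 CPM (others 24.8 to 25.5) and *Hspb1* at 78.5 CPM (others 15.3 to 19.4). In the 10-week-old liver *Hspb1* was at 49.2 CPM in replicate 1 and at 16.8 to 19.7 in the others.

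Replicate 1 was also the one that stood apart in 4 further sets. *Hsp90ab1* was at 1443 CPM in the 12-week-old heart (others 1245 to 1269). *Cirbp* was low, at 8.38 CPM, in the 10-week-old kidney (others 10.5 to 10.9). *Rbm3* was low in the 8-week-old heart, at 20.8 CPM (others 27.3 to 28), and in the 12-week-old heart, at 25.9 CPM (others 30.2 to 31). The last of the 10 was *Rbm3* in replicate 2 of the 12-week-old kidneys, at 38.3 CPM (others 34.0 to 34.1).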

How the results depend on the processing

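The limits lie mainly in 4 libraries per group and in 1 liver. The 3 age calls of *Hsph1*, *Cirbp* and *Hsp90aa1* were kept under every other test, scaling, filter, strand setting and block that was tried and were lost only when some single libraries were left out, as given with each. Other counts moved with the filter and the tool, and the cause was not tested. With DESeq2 the number called among the 10 genes went to 2 in heart from 8 to 10 weeks, to 6 in kidney from 8 to 10 weeks and to 4 in kidney from 10 to 12 weeks, and among the 49 further chaperones to 5, 3 and 1 in hearts (8 to 12, 8 to 10 and 10 to 12 weeks), to 10 and 7 in kidneys (8 to 10 and 10 to 12 weeks) and to 1, 3 and 1 in liver (8 to 12, 8 to 10 and 10 to 12 weeks). DESeq2 called 680 of all genes in kidney from 8 to 10 weeks, against 164 here. Its share of all genes was 8.39%, 2.42% and 0.469% in heart (8 to 12, 8 to 10 and 10 to 12 weeks). In kidney it was 3.85% and 3.72% (8 to 10 and 10 to 12 weeks). In liver it was 2.89%, 2.47% and 3.3% (8 to 12, 8 to 10 and 10 to 12 weeks). With no filter on low counts, which called 1005 genes there, the counts for the 10 genes were 4 and 2 in heart (8 to 10 and 10 to 12 weeks), 7 and 6 in kidney (8 to 10 and 10 to 12 weeks) and 2, 1 and 1 in liver (8 to 12, 8 to 10 and 10 to 12 weeks). Those for the further chaperones were 3 and 2 in heart, 2, 8 and 6 in kidney (8 to 12, 8 to 10, 10 to 12 weeks) and 1 and 2 in liver (8 to 12 and 8 to 10 weeks). Without the filter 2.18% and 0.84% of all genes were called in heart (8 to 10 and 10 to 12 weeks). The shares were 1.22%, 2.39% and 2.23% in kidney and 0.96%, 1.02% and 0.788% in liver (8 to 12, 8 to 10 and 10 to 12 weeks). Differences in age change then numbered 1 between heart and kidney (8 to 10 weeks), 4, 1 and 2 between heart and liver, and 3 and 3 between kidney and liver (8 to 12 and 10 to 12 weeks). For these differences the share of all genes called without the filter is not given, so the counts do not set the 10 genes apart.

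With a replicate block, 1 further chaperone passed in heart from 8 to 12 weeks, where 4.83% of all genes did. From 8 to 10 weeks 2 of the 10 genes passed there, against 1.53% of all genes. Same-numbered libraries of different ages had 6, 3 and 3 of 12 correlations above 0.1 in heart, kidney and liver (medians 0.0657, -0.0179 and 0.0315). The numbers were not taken to pair ages. Between tissues of the same age every kidney correlated best with the liver of its own number (12 of 12, median r 0.176). The count was 10 of 12 for heart and kidney and 8 of 12 for heart and liver. Such best matches were not counted between ages. Correlations above 0.1 numbered 11, 7 and 4 of 12 for kidney and liver, heart and kidney, and heart and liver. By that measure heart and liver (median r 0.0618) did not exceed hearts of different ages. The matches between tissues, clearest for kidney and liver, are a hint, from the data only, that libraries with the same age and number share an animal. Outside the replicate block, the tissue and interaction tests took the 36 libraries as independent and left such a pairing out. The strand sum gave 1 of the 10 genes in kidney from 10 to 12 weeks, against 0.828% of all genes. Without removing the age means 2, 6 and 5 pairs of genes passed in heart, kidney and liver, against 0, 2 and 1, and r of *Hspa1b* and *Hspb1* in heart turned from -0.25 to 0.118. The log2 level difference of *Hspa1a* between heart and liver turned to 0.71 with limma-voom (adjusted p = 0.212) and to 0.25 with the replicate block (adjusted p = 0.589).

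Leaving out 1 library at a time, the count among the 10 genes ranged from 0 to 3 in heart from 8 to 12 weeks, 0 to 2 from 8 to 10 weeks, 0 to 3 in kidney from 8 to 10 weeks and 0 to 3 from 10 to 12 weeks, and that among the further chaperones from 1 to 10 and 0 to 2 in those heart comparisons, 1 to 7 and 0 to 3 in those kidney ones and 0 to 2 for liver from 8 to 10 weeks. It stayed at 0 in the other age comparisons. The share of all genes called in the same fits is not given, so these ranges do not set the chaperones apart from other genes. The same holds for the counts between tissues and of differences in age change that follow. Between tissues 10 to 10, 7 to 8 and 7 to 9 genes differed, differences in age change ranged from 0 to 2 between heart and liver (8 to 12 weeks) and 0 to 1 between kidney and liver (10 to 12 weeks), and correlated pairs from 0 to 1, 1 to 2 and 0 to 2 in heart, kidney and liver. Signs turned within these ranges of single results: *Hspa1a* in liver from -0.72 to 4.07 (8 to 12 weeks) and -1.03 to 3.69 (10 to 12 weeks), both lowest without 12-week replicate 1. Between heart and liver, *Hspa1a* ran from -0.37 to 1.2 (0.00202 without liver 8-week replicate 3, 1.2 without 12-week replicate 1) and *Hspa8* from -0.094 to 0.013. Between kidney and liver, *Hspa1b* ran from -0.031 to 0.85, below 0 without kidney 12-week replicate 1 or liver 12-week replicate 2, 3 or 4 (-0.031, -0.020, -0.030 and -0.021), and *Dnajb1* from -0.00658 to 0.28 (-0.00525, -0.00658 and -0.00378 without those livers). The r of *Hspa1b* and *Hspb1* in heart ran from -0.40 to 0.0456 and that of *Hspa1b* and *Hsph1* in liver from -0.049 to 0.899.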
